A study of Mus musculus with 12 samples.

Results

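Mast cells and basophils are the cells of the adipose stromal vascular fraction (SVF) that carry the high-affinity IgE receptor and store histamine. They were sought here by raw UMI counts: a barcode was taken as a member if it held at least 2 UMIs of Cpa3, Mcpt8 and Ms4a2 together and none of Adgre1, Cd3d, Cd3e, Cd3g or Pdgfra. Of 126095 barcodes with 700 to 22000 UMIs, 200 to 6000 genes and under 25% mitochondrial UMIs, 86 were members, 79 of them among the 57613 barcodes of epididymal white adipose tissue (eWAT) and 7 among the 68482 of inguinal white adipose tissue (iWAT). By the UMIs of 5 further mast cell genes 71 members were typed as mast-like (70 in eWAT and 1 in iWAT). By basophil genes 1 member was typed as basophil-like, on 2 UMIs, and it is not named a basophil here. A further member, of no single type, held 72 UMIs of Mcpt8.

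The 12 libraries were 10x Genomics 3′ single-cell libraries of SVF from 12-week-old male mice, 2 mice per label and depot. The labels were WT-Veh (C57BL/6J mice given vehicle, methylcellulose), ob/ob-Veh (mice homozygous for the Lep ob allele, Lepob/Lepob, given vehicle) and ob/ob-Rosi (Lepob/Lepob mice given 30 mg/kg rosiglitazone, an agonist of the nuclear receptor PPARγ). Every mouse was dosed by oral gavage for 3 days, and the SVF was freed from tissue biopsies with collagenase, with floating adipocytes removed and red blood cells lysed, so mature adipocytes and cells lost in the digestion were not sampled. Both ob/ob groups carried the same mutation, and none of these libraries came from lean mice given rosiglitazone.

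Library totals ran from 20132553 to 92475986 UMIs and from 6472 to 17500 kept barcodes. A 3′ count cannot check the genotype, since the mutated Lep gene still gives a transcript. As another look at the labels, Lep was set against Adipoq, both adipocyte transcripts: per 100 Adipoq UMIs the eWAT libraries held 27.97 and 42.5 Lep UMIs (WT-Veh), 3.95 and 16.2 (ob/ob-Veh), then 240 and 390.1 (ob/ob-Rosi). The iWAT libraries held 20.1 and 31.6, 36.4 and 15.1, then 164 and 141. Obese ob/ob fat is known for abundant Lep transcript and PPARγ agonists for reducing it, so the eWAT ratios ran against that order at both steps and the iWAT ratios at the step to ob/ob-Rosi. They rest on 4 to 277 Lep and 11 to 265 Adipoq UMIs a library in a preparation without adipocytes and do not settle the labels, and the directions between labels given here are those of libraries as labelled. In sums over whole eWAT libraries, edgeR called 0 of 16631 genes between ob/ob-Rosi and WT-Veh (without adjustment, p was under 0.05 for 106 genes higher in ob/ob-Rosi and 136 lower, and DESeq2 called 3 and 2), against 2728 between ob/ob-Veh and WT-Veh. The second count was 238 to 1742 when 1 of the 4 libraries compared was left out, lowest without WT-Veh replicate 1. In iWAT these counts were 0 (600 and 886 unadjusted, 101 and 241 by DESeq2, and 653 by edgeR without WT-Veh replicate 2) and 3082, the latter 189 and 1042 with the first or the second ob/ob-Veh library left out and 1770 with the first WT-Veh library left out. Of all libraries, iWAT WT-Veh replicate 1 was the shallowest, with a median of 1132 UMIs per kept barcode. A pair of libraries shared at most 99 barcodes, or 1.05% of the smaller library, and 2 of the 86 members had a barcode that also occurred in another library.

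Mast cells mature in tissues under the receptor tyrosine kinase Kit, fill their granules with chymases, tryptases and carboxypeptidase A3 bound to heparin, and release them with histamine when IgE or other ligands reach their receptors. Basophils circulate, share the IgE receptor and histamine with mast cells, and are marked in mice by the protease Mcpt8. Both lineages depend on the transcription factor Gata2. In adipose tissue mast cells lie along vessels and among adipocytes.

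Members were typed by the summed UMIs of 5 mast cell genes (Cma1, Mcpt4, Tpsb2, Tpsab1 and Kit) and 3 basophil genes (Mcpt8, Prss34 and Cd200r3): at least 2 UMIs and at least 3 times the other sum gave the type. Before the exclusion of macrophage, T cell and fibroblast markers, 127 barcodes reached the sum of 2 for Cpa3, Mcpt8 and Ms4a2, and 41 of these were excluded, 12 of the 28 in eWAT and 1 of the 13 in iWAT with at least 2 mast cell UMIs. At the threshold itself, the 10 eWAT members with exactly 2 UMIs included 3 with at least 2 mast cell UMIs, against 7 of the 145 eWAT barcodes with 1 UMI. Above it, 68 of the 69 eWAT members with 3 UMIs or more met that level. In iWAT all 7 members sat exactly at 2 UMIs, 1 of them with 2 mast cell UMIs or more, beside 5 of 285 barcodes with 1 UMI.

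The 13 untyped members, 7 in eWAT and 6 in iWAT, each held exactly 2 UMIs of Cpa3 and no more than 1 UMI of the 5 mast cell genes. Mcpt4 was found in 2 of them, Tpsb2 in 1 and Gata2 in 1, with 2 UMIs, and none held Cma1, Hdc or Fcer1a. All 13 also held UMIs from the lists of macrophage markers and of stromal markers. The plot of mast cell UMIs against depth shows them along its floor.

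**Figure D1:**
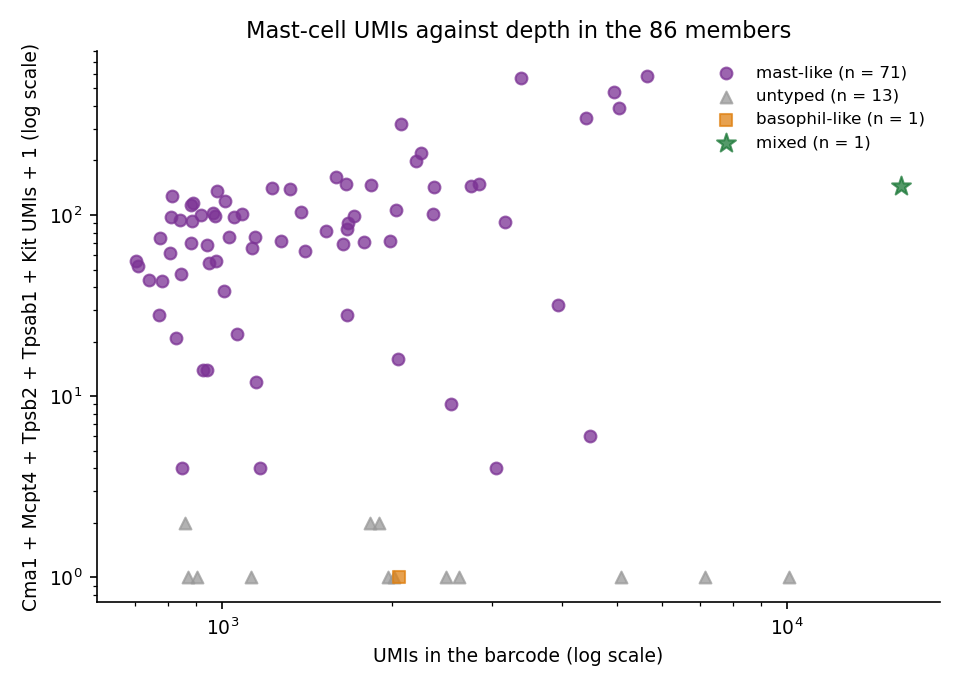
Summed Cma1, Mcpt4, Tpsb2, Tpsab1 and Kit UMIs plus 1 (y axis, log scale) against the total UMIs of the barcode (x axis, log scale) for the 86 members, coloured by type. The 71 mast-like cells lie mostly at low depth with many mast cell UMIs, the 13 untyped members lie near the floor, and the mixed cell with 15925 UMIs stands alone at high depth.

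Only 1 member met the basophil rule, among eWAT barcodes of WT-Veh replicate 2, with 1 UMI each of Mcpt8, Ms4a2, Cpa3 and Cd200r3, 4 of Fcer1a and 14 of Hdc, the enzyme that makes histamine, among 2058 UMIs. Its type rested on 2 basophil UMIs and under 3 detected markers of the list, and it is not named a basophil here. A further member in the eWAT library labelled ob/ob-Veh replicate 1 was mixed. That barcode held 72 UMIs of Mcpt8, 199 of Gzmb, 118 of Cma1, 44 of Cpa3, 42 of Hdc, 25 of Kit, 22 of Gata2, 6 of Il13 and 3 of Il4, with 0 of Mcpt4 and Tpsb2, among 15925 UMIs and 4280 genes. It had the highest depth of all members, and whether it held 1 cell or more was not tested. Prss34 and Cd200r3 of the basophil list did not set basophils apart here, being found in 25 and 21 of the mast-like cells. Neither the basophil-like nor the mixed cell held Prss34.

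The mast-like cells were led by granule proteases of connective tissue mast cells, whose genes lie in 2 clusters and 1 single locus of GRCm38. The chymases Cma1 (chr14:55941451-55944675, minus strand) and Mcpt4 (chr14:56059629-56062313, minus strand) share a locus with Mcpt8 (chr14:56082166-56085273), cathepsin G, Ctsg (chr14:56099881-56102574), and granzyme B, Gzmb (chr14:56258838-56262260). The tryptases Tpsab1 (chr17:25343245-25345562), Tpsb2 (chr17:25366305-25369098) and Tpsg1 (chr17:25369273-25374442) lie beside Prss34 (chr17:25298394-25300165), and Cpa3, carboxypeptidase A3, lies at chr3:20215620-20242181. Neighbouring tryptase genes are alike in sequence, and the counting of reads between them was not checked.

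Gata2, the lineage's transcription factor, binds the letters GATA, and the stretches before the start sites of 2 proteases and 2 IgE receptor chains are shown because they hold a longer form of it. The 250 bases before each RefSeq start on GRCm38 were searched for AGATAA. The variant form TGATAA was searched as well. On the opposite strand these letters read as TTATCT. For the variant form they read as TTATCA. The match is in capitals.
Mcpt4: tgagaatttcTGATAAggaaagtaga
Cpa3: ctgttcgtcgAGATAAaagctgaggt
Ms4a2: gcctggagacTTATCTgacaagtagg
Fcer1a: aaccctattaTTATCTctggagaaag
The stretches lie on the minus strand at chr14:56062398-56062423, chr3:20242212-20242237, chr19:11623741-11623766 and chr1:173227306-173227331, with the match 103, 46, 37 and 92 bases before the start. Ms4a2, the beta chain of the IgE receptor, held 3 matches, the other 3 genes 1 each. Of 13 genes searched 7 held a match, among them Mrgprb2 and Prss34 with 1 each and Il1rl1 with 3 over its 2 windows, which are not shown. Cma1, Kit, Gata2, Hdc, Mrgprb1 and Mcpt8 held none in this window. Such a match stood in 16.6% of all 32851 windows, and it describes the letters only, not a binding site.

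Cma1 was present in 69 of the 71 mast-like cells, Tpsb2 in 68, Mcpt4 in 62 and Cpa3, which the rule used, in 71. All 4 were found in 61 cells and 3 of them in 7. The rule chose the cells by Cpa3, Mcpt8 and Ms4a2, and the typing by Cma1, Mcpt4, Tpsb2, Tpsab1 and Kit. Counts and levels of these genes are in part set by that choice. Levels against other barcodes are therefore descriptions without a test. Levels are given per gene as CPM, the UMIs of a gene over the summed UMIs of the cells, scaled to the usual common total, and 3′ counts without length scaling do not rank genes against each other.

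Cma1 stood at 25801 CPM in the mast-like cells and at 7.77 CPM in the other kept barcodes. Mcpt4 stood at 20849 against 7.40 CPM, and Tpsb2 at 16431 against 5.92 CPM. The 71 cells, 0.0563% of all kept barcodes, held 43.3% of the Cma1 UMIs, 40.0% of the Mcpt4 UMIs and 60.6% of the Prss34 UMIs of the whole series. Of the 11 proteases on the list, 8 were detected, and the 3 at 0 were Mcpt1, Mcpt2 and Mcpt9. Mcpt1 and Mcpt2 mark mucosal mast cells.

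Cma1, Mcpt4, Tpsb2 and Cpa3 together made up a median of 7.42% of the UMIs of a mast-like cell, with a range of 0.179% to 19.1%. Per library the median was 9.55% and 7.56% under WT-Veh, 6.32% and 6.58% under ob/ob-Veh and 10.7% and 10.98% under ob/ob-Rosi, the last 2 from 2 and 6 cells. Cells differed more in other proteases. Gzmb was found in 16 cells and 3 of them held 75.9% of its 199 UMIs, and Prss34 was found in 25 cells with 54.4% of its 149 UMIs in 3. Only 3 cells held both.

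Apart from Fcer1g, the receptors named here followed the same pattern. Fcer1a, the IgE-binding alpha chain of the receptor, stood at 1926 CPM in mast-like cells against 0.498 CPM in other barcodes, and Fcer1a or Ms4a2 was found in 61 of 71 cells. Fcer1g, the gamma chain that myeloid cells also use, stood at 1726 against 929 CPM. In eWAT alone it stood at 1743 CPM in mast-like cells. Barcodes classed by Adgre1 held more, 1896 CPM, and those classed by Nkg7 held 1470 CPM. Kit stood at 1350 against 7.25 CPM, and Il1rl1, the IL-33 receptor, at 1784 against 18.8 CPM. Genes of the Mrgpr receptor family were also present, Mrgprb1 at 1834 CPM in 50 cells, Mrgprb2 at 467 CPM in 36 cells and Mrgprx2 at 417 CPM in 26 cells.

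Hdc stood at 3059 against 4.04 CPM, and Slc18a2, which loads amines into granules, at 759 against 0.551 CPM. Genes of serotonin handling were also detected, the transporter Slc6a4 at 667 CPM in 29 cells and Tph1, which starts serotonin synthesis, at 183 CPM in 15. Of 14 genes for histamine and eicosanoids, 12 were detected. Hpgds, which makes prostaglandin D2, stood at 358 CPM, Alox5, which starts leukotriene synthesis, at 200.1 CPM, and Ltc4s, which makes leukotriene C4, at 58.4 CPM in 6 cells, below its 106 CPM in other barcodes.

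All 18 genes for the granule matrix and exocytosis were detected. Srgn, the core of the granule proteoglycan, stood at 3418 against 376 CPM, Rab27b, which guides granules to the membrane, at 634 against 2.90 CPM, and Ndst2, which sulphates heparin, at 275 CPM against 18.6 CPM in other eWAT barcodes. Of the 23 genes of IgE receptor signalling, 22 were detected, with the adaptor Lat2 at 567 CPM and the kinase Prkcb at 459 CPM, against 89.5 and 31.2 CPM in other eWAT barcodes. Plcg2 was at 0.

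Among 26 transcription factors 25 were detected. Gata2, a marker of the population that the rule did not use, was found in 41 cells at 859 CPM against 9.05 CPM elsewhere. Gata2 or Kit, of which the typing used Kit, was found in 57 of 71. Mitf stood at 275 CPM in 22 cells and Tal1 at 208 CPM in 19. Gata1 was found in 3 cells. Cebpa, which basophils use, was found in 2 cells at 16.7 CPM, below its 50.9 CPM elsewhere.

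Of 26 cytokines and chemokines 20 were detected. Ccl2, which recruits monocytes, was found in 52 cells at 1967 CPM and Ccl7 in 24 at 1292 CPM, against 257 and 111 CPM in other eWAT barcodes. Tnf was found in 34 cells at 567 CPM. The type 2 cytokines were rare, Il13 in 10 cells at 91.7 CPM and Il4 in 5 at 41.7 CPM, although other eWAT barcodes held 0.273 and 0.393 CPM. Il6 was found in 2 cells at 25.01 CPM, below the 53.0 CPM of other eWAT barcodes, and Il5, Il9 and Il10 were at 0.

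Pparg, the target of rosiglitazone, was at 0 UMIs in the mast-like cells, which hold too few UMIs to show a low level. The 24 genes of the PPAR list summed to 3226 CPM against 11720 CPM in other eWAT barcodes, which pool unlike cells. Fabp4 of that list stood at 497 CPM in eWAT mast-like cells. It stood at 466 to 761 CPM in barcodes classed by Cd79a, Cd3 or Nkg7, and at 37341 CPM in those classed by Pecam1. Barcodes classed by Adgre1 or Pdgfra, or with no marker, held 1566 to 1881 CPM. The heat map of genes by class sets the mast-like cells beside barcodes grouped by the first lineage marker they held.

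**Figure D2:**
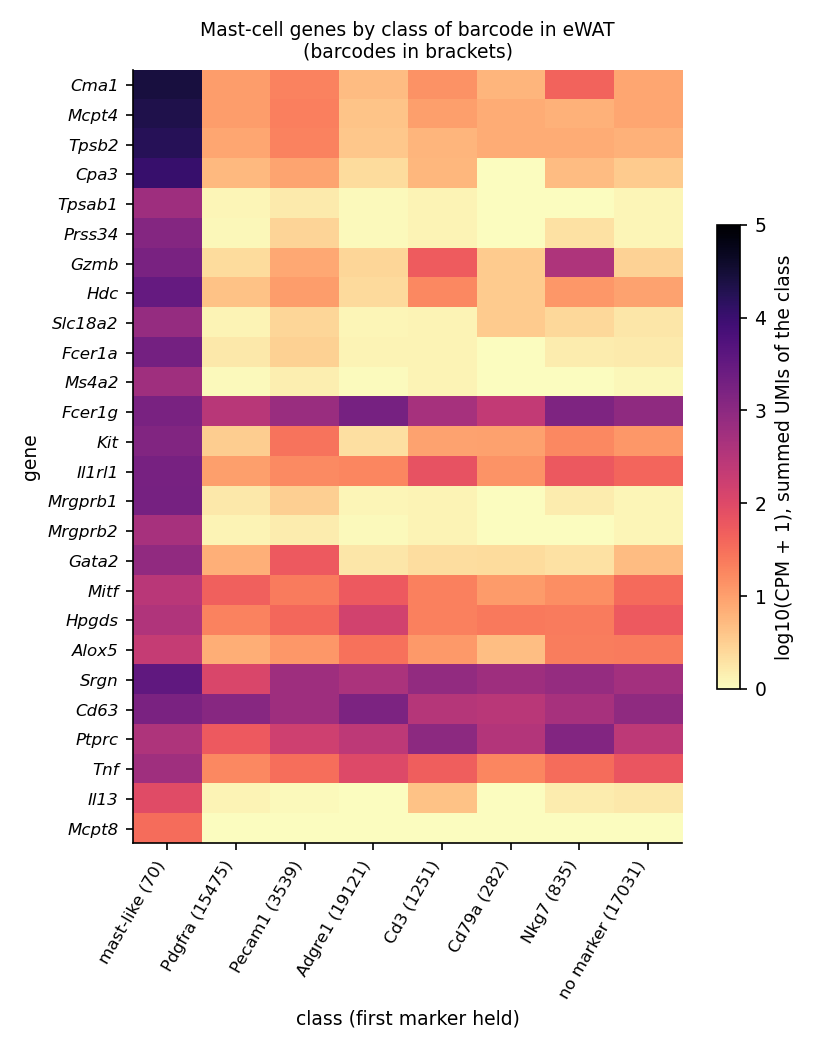
Levels of mast cell, basophil and other genes (rows) in eWAT barcodes grouped by the first lineage marker found (columns, with the number of barcodes), as log10 of CPM plus 1. The column of 70 mast-like cells is dark for the proteases, Hdc and the receptors, Cma1 reaches 42.1 CPM among 835 Nkg7 barcodes, and Gata2 and Kit reach 55.1 and 28.1 CPM among 3539 Pecam1 barcodes.

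Markers of other cell types were also found in mast-like cells. Of 13 macrophage markers 12 were detected, summing to 3051 CPM against 14764 CPM in other eWAT barcodes, with Adgre1 at 0 by the rule, and 9 of 10 stromal markers summed to 4026 against 19163 CPM. UMIs of a macrophage marker were found in 57 cells and of a stromal marker in 62. In all, 39 of the 71 cells held 3 or more UMIs from 11 genes of other lineages. In eWAT, 4 of 15 and 4 of 11 cells lay below that level under WT-Veh. Under ob/ob-Veh 15 of 22 and 8 of 14 did, and under ob/ob-Rosi 1 of 2 and 0 of 6. In 7 of the 71, including the iWAT cell, at least 1 of 11 lists of other cell types outnumbered the 5 mast cell genes, so the name went against these cells' own counts. The widest gaps were 156 stromal against 5 mast cell UMIs in a cell of ob/ob-Veh replicate 1, and 64 macrophage against 8 and 51 stromal against 3 in 2 cells of WT-Veh replicate 1. Another of these 7 was typed by 3 UMIs of Kit without any of Cma1, Mcpt4, Tpsb2 and Tpsab1. Of 8 eosinophil markers 1 was detected, and Siglecf, Ccr3, Prg2 and Epx were at 0. Of 12 type 2 innate lymphoid cell markers 3 were detected, with Gata3 and Il17rb at 0. No doublet caller was run, and free RNA and doublets were not told apart.

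Mast-like cells were shallow. Their median UMI count per eWAT library ran from 821 to 1653 against 2046 to 4963.5 in the other barcodes and was lower in 6 of 6 libraries, as was the median number of genes (481 to 815 against 984 to 1905.5). The median share of mitochondrial UMIs ran from 4.44% to 13.7% against 3.34% to 6.12% and was higher in 6 of 6. These are descriptions, since a deep barcode is more likely to hold a UMI that the rule excludes. The upper limits on UMIs and mitochondrial share and the lower limits were then all dropped. Mast-like cells of the eWAT libraries then numbered 20, 14, 38, 16, 4 and 8 in place of 15, 11, 22, 14, 2 and 6. The values are pairs, WT-Veh first, then ob/ob-Veh and last ob/ob-Rosi. In iWAT there was still 1, but its matrices hold no barcode past the upper limits, so only the lower limits could add a cell.

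The first comparison was between depots. Members took 0.102% and 0.185% of kept barcodes in the eWAT libraries labelled WT-Veh, 0.316% and 0.194% under ob/ob-Veh and 0.0212% and 0.0596% under ob/ob-Rosi. In iWAT they took 0% and 0.0102%, 0.0278% and 0.0278%, and 0.0207% and 0%. The mean was 0.146% ± 0.108 (SD, n = 6) in eWAT and 0.0144% ± 0.0129 (SD, n = 6) in iWAT, and the lowest eWAT library lay within the iWAT range. The difference, iWAT minus eWAT, was -0.132 percentage points (two-sided exact permutation test over 924 splits, p = 0.00649).

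Every eWAT library had a higher mast-like share than every iWAT library. The shares were 0.102% and 0.170%, 0.240% and 0.181%, and 0.0212% and 0.0596% in eWAT, whereas 5 of 6 iWAT libraries held none and 1 library labelled ob/ob-Veh held 1 cell, or 0.0139%. A count of 0 allowed a share of up to 0.0171% in the largest iWAT library without such a cell and up to 0.0416% in the smallest, taking 3 counts as the limit. The two-sided 95% exact interval ended at 0.0211% and 0.0512%. Both cover counting error only. The difference was -0.127 percentage points (two-sided exact permutation test, p = 0.00216, the smallest that 924 splits allow). Restricted to splits within labels the members gave p = 0.00926 by exact permutation over 216 splits. Without the cells that held 3 or more UMIs of other lineages the mast-like difference was -0.0611 percentage points. Then eWAT ob/ob-Rosi replicate 2 held 0 mast-like cells, as did all iWAT libraries, so the separation was lost. The single iWAT mast-like cell held 2 UMIs of Cpa3, 2 of Tpsb2 and 1 each of Cma1, Fcer1a and Hdc among 1165 UMIs, along with 12 UMIs of endothelial markers.

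**Figure D3:**
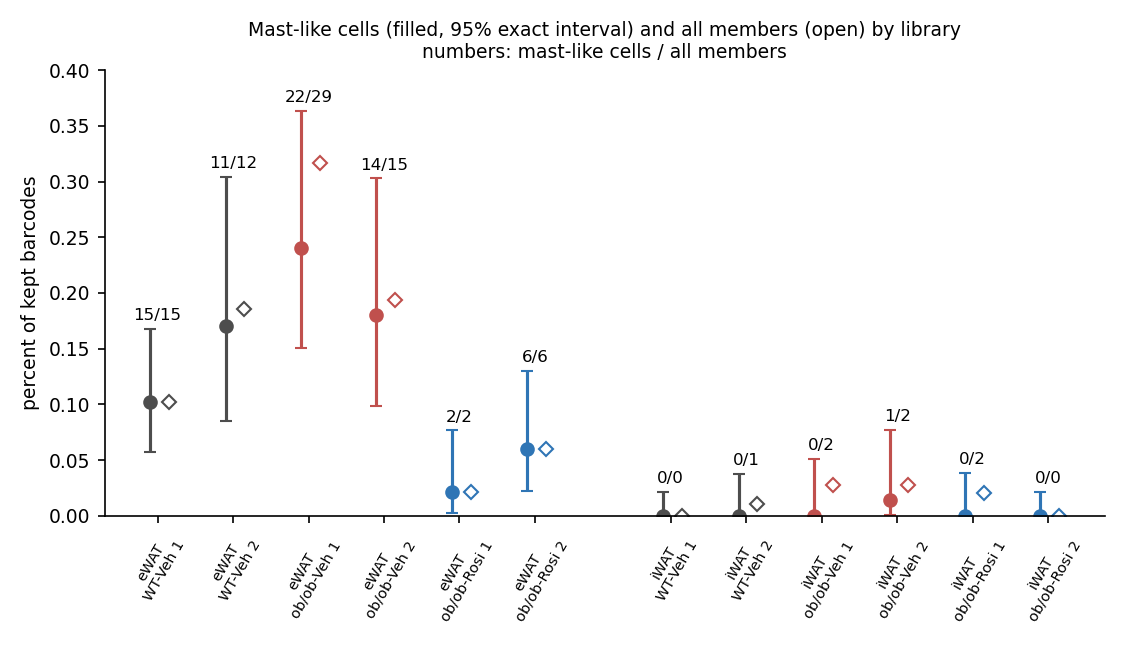
Percent of kept barcodes that were mast-like (filled points, with 95% exact binomial intervals) and that were members (open points) in each of the 12 libraries, with the counts printed above. The 6 eWAT libraries held 2 to 22 mast-like cells, and the 6 iWAT libraries held 0, except 1 cell in the library labelled ob/ob-Veh replicate 2.

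The RNA of 3 mast cell proteases overlapped between the depots. Cma1, Mcpt4 and Tpsb2 together made up 8.87 to 42.9 CPM of all UMIs in the iWAT libraries and 8.996 to 83.0 CPM in the eWAT libraries, a difference, iWAT minus eWAT, of -22.5 CPM that did not pass (two-sided exact permutation test, p = 0.141, n = 6 each). It was lower in iWAT in 5 of 6 pairs of the same label and number (exact sign flips over 64, p = 0.0625), and without eWAT ob/ob-Rosi replicate 1 it was -30.4 CPM and passed the unpaired test (exact permutation, p = 0.0455). Of these UMIs 99.8% lay in iWAT barcodes with fewer than 2 UMIs of the rule's genes (5047 of 5056), against 27.4% in eWAT (3648 of 13311). In iWAT they were spread over 4654 barcodes, of which 4322 held 1 UMI, and no such barcode held more than 8. In eWAT 3275 such barcodes held them, 2971 with 1 UMI and 1 with 22, while a barcode that reached 2 UMIs of the rule's genes held up to 570.

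Pooled over barcodes, the 3 proteases stood in similar proportions inside and outside the mast-like cells. Cma1, Mcpt4 and Tpsb2 made up 40.9%, 33.1% and 26.05% of their sum in mast-like cells, 39.0%, 34.1% and 26.9% in the remaining eWAT barcodes below the rule's threshold and 36.8%, 35.4% and 27.8% in those of iWAT. Single classes departed from this, the eWAT Nkg7 barcodes with 84 Cma1, 11 Mcpt4 and 13 Tpsb2 UMIs and the Cd3 barcodes with 42, 29 and 16. In the remaining barcodes the sum came to 4.82 to 38.4 CPM in eWAT and 8.87 to 42.8 CPM in iWAT, ranges that overlapped. The difference, iWAT minus eWAT, was 13.1 CPM (two-sided exact permutation test, p = 0.0952). Without eWAT ob/ob-Veh replicate 1 it was 18.1 CPM (exact permutation, p = 0.0476). Paired by label and number, iWAT was higher in 6 of 6 pairs (exact sign flips, p = 0.03125, the smallest that 64 flips allow). The rule itself shaped this difference, since it left 27.4% of the protease UMIs in these barcodes in eWAT and 99.8% in iWAT. The p-values of this sum are therefore no test of the depots. Between 1.72% and 18.3% of these eWAT barcodes, and between 4.09% and 13.2% in iWAT, held at least 1 of the 3 transcripts. Where that RNA came from was not tested.

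**Figure D4:**
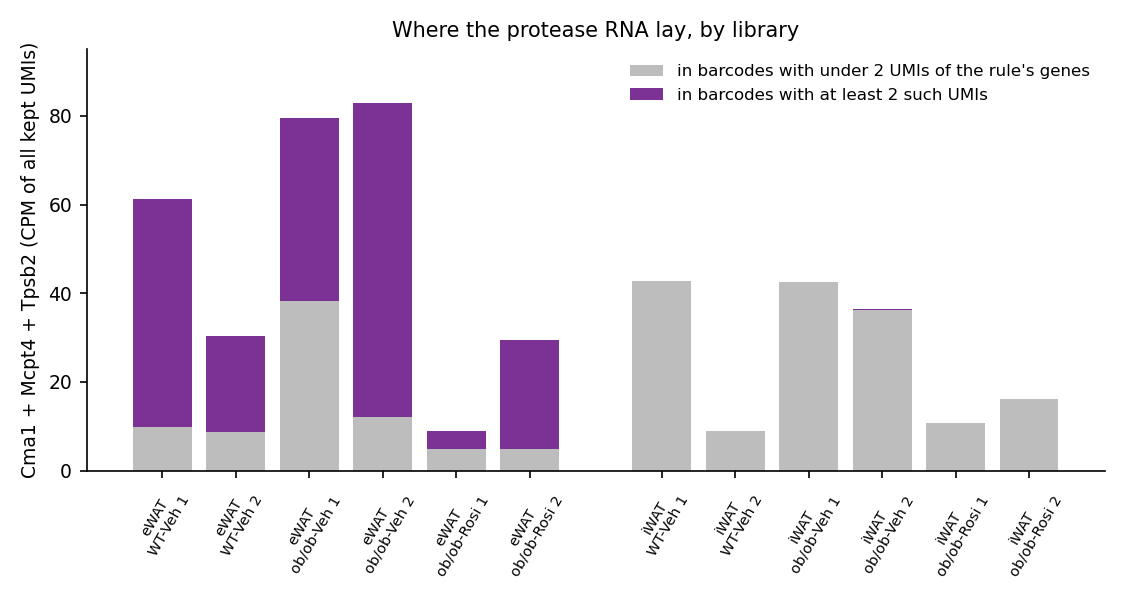
CPM of Cma1, Mcpt4 and Tpsb2 summed over all kept barcodes of each library (bars, from 0), split into barcodes with under 2 UMIs of Cpa3, Mcpt8 and Ms4a2 (grey) and with at least 2 (purple). The iWAT bars, 8.87 to 42.9 CPM, are grey almost to the top, and the eWAT bars are mostly purple except in ob/ob-Rosi replicate 1, where 53.5% is grey, beside 48.2% in ob/ob-Veh replicate 1.

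Summing all kept barcodes of each library and fitting 16631 genes asked the same of single genes, with the limit that such sums cannot tell fewer cells from less RNA per cell. Between depots 17.1% of genes passed in either direction and 10.6% were lower in iWAT. Of 17 mast cell and basophil genes fitted, Fcer1a passed, lower in iWAT by a log2 difference of -1.76 ± 0.42 SE (edgeR quasi-likelihood test, adjusted p = 0.0206), from 0.348 to 2.09 CPM in eWAT and 0.179 to 0.846 CPM in iWAT. Cma1 gave -0.95 ± 0.40 SE (adjusted p = 0.129), Mcpt4 -0.80 ± 0.41 SE (adjusted p = 0.202), Tpsb2 -0.87 ± 0.47 SE (adjusted p = 0.220), Cpa3 -0.94 ± 0.43 SE (adjusted p = 0.156) and Prss34 -2.49 ± 0.77 SE (adjusted p = 0.0506). In all, 13 of the 17 genes had a negative difference and 4 a positive one, Gata2 (0.66), Il1rl1 (0.36), Slc18a2 (0.30) and Kit (0.24), none past the threshold. Over barcodes below the rule's 2 UMIs alone 2 were negative and 15 positive, which describes what the rule left behind and is no test of the depots. Among all 16631 genes, 3138 were lower and 2496 higher in iWAT at an unadjusted edgeR p under 0.05. The share of negative differences over all genes was not counted. Mast-like cells held at most 4.90% of the series' UMIs of Gata2, Il1rl1, Kit and Rab27b, so the tally of 13 and 4 is not about these cells alone. The Fcer1a call was lost when any of 7 of the 12 libraries was left out in turn (adjusted p from 0.0514 to 0.0750). Without the shallow iWAT WT-Veh replicate 1, Cma1 and Cpa3 passed as well, at -1.53 (adjusted p = 0.0118) and -1.59 (adjusted p = 0.0124).

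The second comparison was between labels, and asked whether these cells were more or less frequent in ob/ob mice and after rosiglitazone. In eWAT the members numbered 15 and 12 under WT-Veh, 29 and 15 under ob/ob-Veh and 2 and 6 under ob/ob-Rosi. The 95% exact binomial intervals of their shares were 0.0571% to 0.168% and 0.0958% to 0.324%, 0.212% to 0.454% and 0.108% to 0.319%, and 0.00257% to 0.0765% and 0.0219% to 0.130%. Both ob/ob-Rosi libraries lay below all 4 others.

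Members as 1 class of barcodes among 8 fell under ob/ob-Rosi against ob/ob-Veh by 2.61 on the log2 scale, with an SE of 0.66 (edgeR quasi-likelihood test on counts per class, adjusted p = 0.0019, 37.5% of classes called). Without the library labelled ob/ob-Veh replicate 1 the difference was -2.21 and did not pass (adjusted p = 0.0768), and without ob/ob-Rosi replicate 2 it was -3.52. With members divided into mast-like, basophil-like and other members, 10 classes in all, the mast-like class gave -2.34 ± 1.56 SE and did not pass (adjusted p = 0.403, 20% of classes called). As the only member class among 8 it gave -2.34 and passed (adjusted p = 0.00192), as it did by DESeq2 (-2.37, adjusted p = 0.00492), so the call on mast-like cells depended on the fit. Under ob/ob-Rosi the Pdgfra class fell too, by 1.04, and the Adgre1 class rose by 0.99 (adjusted p = 0.0019 each by the same edgeR test). A lower share of one class raises the shares of others, and the shift of these classes and the fall of the members cannot be told apart from shares alone.

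Under ob/ob-Veh against WT-Veh the members gave +0.87 ± 0.59 SE (adjusted p = 0.405, 25% of classes called), and mast-like cells +0.67 ± 1.40 SE (adjusted p = 0.797). Counted among barcodes with a UMI of Ptprc, the leukocyte antigen, members gave 1.75 (adjusted p = 0.0181) and mast-like cells 1.52 (adjusted p = 0.0491), both by the edgeR test. Only 26 of the 71 mast-like cells held a Ptprc UMI themselves. Under ob/ob-Rosi against WT-Veh members gave -1.74 ± 0.67 SE (adjusted p = 0.125, 0% of classes called) and mast-like cells -1.67 ± 1.58 SE (adjusted p = 1). The comparisons with ob/ob-Veh share its 2 libraries.

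In iWAT, members numbered 0 and 1 under WT-Veh, 2 and 2 under ob/ob-Veh and 2 and 0 under ob/ob-Rosi. No comparison of labels passed the edgeR test there, with log2 differences of 2.52 ± 2.25 SE (ob/ob-Veh against WT-Veh, adjusted p = 0.365, 25% of classes called), -1.64 ± 2.06 SE (ob/ob-Rosi against ob/ob-Veh, adjusted p = 0.496, 0% called) and 0.88 ± 2.43 SE (ob/ob-Rosi against WT-Veh, adjusted p = 0.891, 0% called). These values rest on 7 members with SEs of 2.06 to 2.43, and what difference could be detected was not tested.

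Sums over whole eWAT libraries gave single-gene values beside the cell counts. Mrgprb1, of whose UMIs in the series mast-like cells held 43.3%, stood at 0.856 and 0.808 CPM under WT-Veh, 2.60 and 2.87 CPM under ob/ob-Veh and 0.261 and 0.454 CPM under ob/ob-Rosi. It fell by 2.63 on the log2 scale, with an SE of 0.68, under ob/ob-Rosi against ob/ob-Veh (edgeR quasi-likelihood test, adjusted p = 0.0292), where 7.84% of genes were called lower. Rab27b fell by 2.34 (SE 0.55, adjusted p = 0.0212) and Il1rl1 by 1.84 (SE 0.38, adjusted p = 0.0130), although mast-like cells held only 4.90% and 2.20% of the series' UMIs of these 2 genes. The calls on Mrgprb1 and Rab27b were lost when any of the 4 libraries compared was left out, with adjusted p from 0.0979 to 0.137 and from 0.0723 to 0.0933. That on Il1rl1 was lost without ob/ob-Veh replicate 1 (adjusted p = 0.0772) or ob/ob-Rosi replicate 2 (adjusted p = 0.119). Cma1 gave -1.89 ± 0.71 SE (adjusted p = 0.0975), Cpa3 -2.18 ± 0.77 SE (adjusted p = 0.0807) and Ms4a2 -2.48 ± 0.78 SE (adjusted p = 0.0562). None of the 3 passed, although each did in 4 of 16 alternatives. All 3 passed when either iWAT WT-Veh library, which is outside this comparison but enters the estimate of the spread, was left out (adjusted p from 0.0181 to 0.0255).

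Rab27b and Il1rl1 also rose under ob/ob-Veh against WT-Veh, by 1.89 ± 0.54 SE (adjusted p = 0.0394) and 2.76 ± 0.39 SE (adjusted p = 0.00372) in the edgeR fit, where 8.27% of genes were called higher. The Il1rl1 call held without each of the 12 libraries, and the Rab27b call was lost without any of 6 (adjusted p up to 0.270). In iWAT, Mrgprb1 stood at 1.22 and 1.84 CPM under ob/ob-Veh and at 0.205 and 0.256 CPM under ob/ob-Rosi, and fell by 2.55 (SE 0.69, edgeR adjusted p = 0.0399, 4.49% of genes called lower). Kit rose in the same comparison by 2.01 (SE 0.48, edgeR adjusted p = 0.0265, 8.54% called higher), from 2.79 and 5.51 to 22.1 and 7.80 CPM. Mast-like cells held 4.199% of its UMIs in the series, but the iWAT mast-like cell held 0. In this comparison all UMIs of Mrgprb1 and Kit lay in barcodes with under 2 UMIs of the rule's genes. The class of Pecam1 barcodes gave 1.92 there (edgeR adjusted p = 0.206, 0% of classes called), and its part in the Kit value was not tested. These 2 iWAT calls were lost without any of 8 libraries for Mrgprb1 (adjusted p up to 0.170) and any of 5 for Kit, whose difference was 0.99 (adjusted p = 0.184) without ob/ob-Rosi replicate 1. Gzmb was lower in iWAT under ob/ob-Veh against WT-Veh (-2.99, edgeR adjusted p = 0.0349, 10.9% called lower), a call lost without any of 9 libraries. Mast-like cells held 5.72% of its UMIs in the series and the iWAT mast-like cell held 0. In the same comparison the class of Cd3 barcodes fell by 4.15 (edgeR adjusted p = 0.00128, 22.2% of classes called). That of Nkg7 barcodes gave -2.82 (adjusted p = 0.0519). The Cd3 class held 4041 of 17063 and 756 of 9837 barcodes under WT-Veh, and 32 of 7205 and 95 of 7203 under ob/ob-Veh. The part of these classes in the Gzmb value was not tested. Whether label effects on the 17 genes differed between depots was tested in 34 interaction terms by edgeR. With the replicate block 1 passed, by DESeq2 3, and without the filter 2 of 36. In the main fit none passed. The smallest p belonged to Il1rl1 (ob/ob-Veh against WT-Veh, iWAT minus eWAT -2.57 ± 0.53 SE, adjusted p = 0.0873, and with the replicate block -2.60, adjusted p = 0.0435, which passed) and Kit (ob/ob-Rosi against ob/ob-Veh, 2.80 ± 0.66 SE, adjusted p = 0.139). In these tests 0.12% (ob/ob-Veh against WT-Veh) and 0.0481% (ob/ob-Rosi against ob/ob-Veh) of all genes were called, 20 and 8 genes, against 133 and 57 with the block and 667 and 417 by DESeq2. DESeq2 called Il1rl1, Kit and Rab27b among the 34, genes of which mast-like cells held at most 4.90% of the UMIs.

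The third comparison was of genes within mast-like cells, and only the 4 eWAT libraries labelled WT-Veh (15 and 11 cells) and ob/ob-Veh (22 and 14 cells) held enough of them, at least 10 each. Of 389 genes tested none passed (edgeR quasi-likelihood test, 0% called), while 36 were higher and 42 lower under ob/ob-Veh at an unadjusted p under 0.05. DESeq2 called 1 higher and 6 lower. The count rested on single libraries, with 17 higher and 17 lower without WT-Veh replicate 2, 7 higher and 15 lower without ob/ob-Veh replicate 2, and 0 without either of the others. Each of these fits leaves 1 label with a single library, which is assumed to vary like the 2 of the other label. In simulated counts of these libraries 97 of 389 genes were changed. The fit recovered 0% of genes changed 2-fold, 60.8% of those changed 4-fold and 82.5% of those changed 8-fold. Thus 2-fold differences were not detectable at this depth. So many changed genes ease the adjustment for multiple tests, so the 4-fold and 8-fold shares do not carry over to data with few changed genes.

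Of the proteases, the chymases and Tpsb2, which the typing used, overlapped between labels. Cma1 stood at 26363 and 23052 CPM under WT-Veh and 21589 and 27395 CPM under ob/ob-Veh (log2 difference -0.04 ± 0.42 SE, edgeR adjusted p = 0.973). Mcpt4 stood at 20402 and 18034 against 16016 and 23347 CPM. Tpsb2 stood at 16922 and 21797 against 8954 and 18217 CPM. For Cpa3, which the rule used, both ob/ob-Veh values (8853 and 10574 CPM) lay below both WT-Veh values (12882 and 11839 CPM).

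Of 389 genes, 26% had both ob/ob-Veh libraries above both WT-Veh libraries and 26.7% had both below. Genes of the mast cell surface and amine list lay above in 7 of the 8 tested, with a median log2 difference of 0.74 against -0.01 over all genes tested. Kit, which the typing used, stood at 560 and 1098 against 1614 and 2164 CPM (1.22 ± 0.47 SE, edgeR adjusted p = 0.218). Il1rl1 stood at 760 and 1490 against 2446 and 2199 CPM, Slc18a2 at 160 and 392 against 933 and 1256 CPM, and Hdc at 1920 and 2352 against 3682 and 3315 CPM. Gata2 followed at 440 and 470 against 883 and 1501 CPM, and none of these passed in the main fit. The log2 difference of Slc18a2, 2.09, ran from 1.52 to 2.86 with a library left out.

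Fcer1a lay the other way, at 2320 and 3607 CPM under WT-Veh and 1211 and 1221 CPM under ob/ob-Veh (log2 difference -1.30 ± 0.38 SE, edgeR adjusted p = 0.134). Gzmb stood at 3280 and 3215 against 555 and 1570 CPM (-1.66 ± 0.52 SE, adjusted p = 0.162), from few cells in each library (7 and 2 against 2 and 2). Without the library labelled ob/ob-Veh replicate 2 it passed at -2.51 (adjusted p = 0.00483), where ob/ob-Veh is 1 library with 2 Gzmb-positive cells, assumed to vary like the WT-Veh libraries. The chemokine Ccl7 stood at 1760 and 3528 against 605 and 489 CPM, while Ccl2 overlapped.

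Lists of other genes also stood apart between the labels in the same cells. The 13 macrophage markers summed to 9041 and 2823 CPM in mast-like cells under WT-Veh and 858 and 838 CPM under ob/ob-Veh, and both macrophage markers tested lay below in ob/ob-Veh, Lyz2 at 3040 and 1176 against 151 and 349 CPM and C1qb at 1520 and 627 against 101 and 69.8 CPM. In the first WT-Veh library 3 cells held 168 of the 226 macrophage UMIs, and the sum was 3345 CPM without them. Genes of the response to tissue dissociation ran the other way, their 25 members summing to 20962 and 22895 against 40758 and 37690 CPM. Of the 16 tested, 11 lay above in ob/ob-Veh, and the immediate early gene Egr1 stood at 1320 and 2823 against 8273 and 9492 CPM. Egr1 (log2 difference 2.11, edgeR adjusted p = 0.104) and Lyz2 (-3.17, adjusted p = 0.0896) did not pass, but did in 6 of 11 and 4 of 10 alternatives. B cell markers summed to 160 and 78.4 against 1312 and 663 CPM, with Igkc, the kappa light chain, at 80.0 and 78.4 against 429 and 419 CPM. In ob/ob-Veh replicate 1 a single cell held 42 of the 52 B cell UMIs, and the sum was 274 CPM without it. The PPAR list summed to 5081 and 4077 against 1740 and 1570 CPM, with Fabp4, a fatty acid carrier, at 1320 and 784 against 25.2 and 174 CPM. Stromal markers overlapped, at 4281 and 6273 against 5296 and 2338 CPM, with 156 of the 210 UMIs of ob/ob-Veh replicate 1 in a single cell and 1535 CPM there without it. The part of these in the differences of Kit, Fcer1a and the other genes was not tested.

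**Figure D5:**
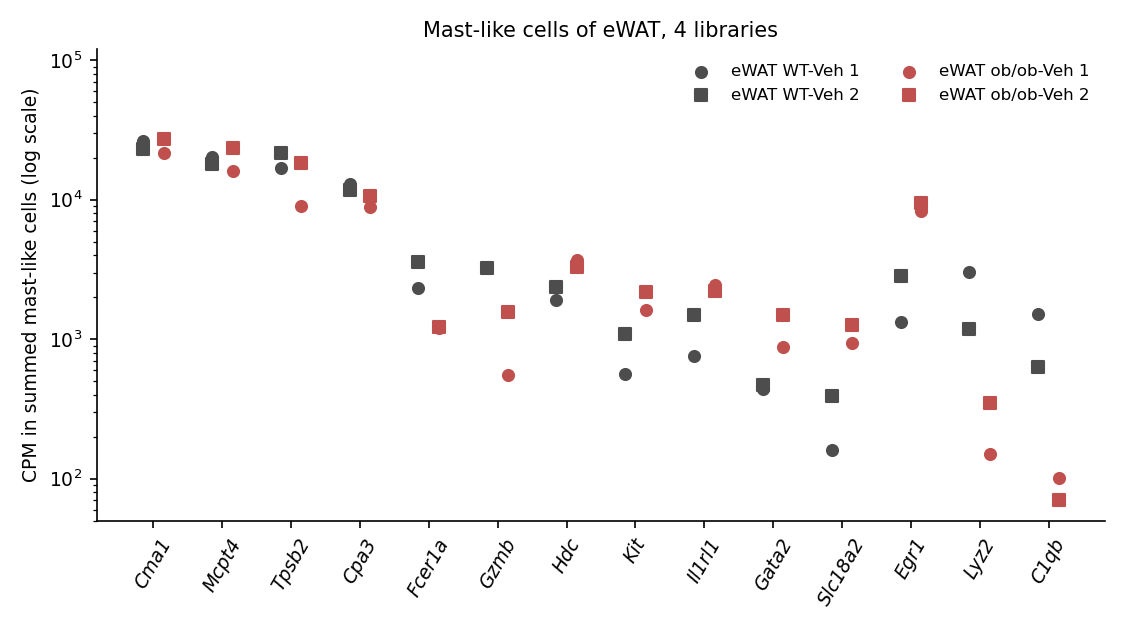
CPM (log scale) of named genes in the summed mast-like cells of the 4 eWAT libraries, circles for replicate 1 and squares for replicate 2, coloured by label. The labels overlap for Cma1, Mcpt4 and Tpsb2, ob/ob-Veh lies above WT-Veh for Kit, Gata2, Hdc and Egr1, and below it for Fcer1a, Gzmb and Lyz2.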

How the data were processed

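Single-cell 3′ libraries of 12 SVF samples were made with the 10x Genomics v3.1 chemistry, and the authors used Cell Ranger 3.0.2 with mm10 to align reads and count UMIs. The deposited matrices hold raw counts of UMIs per gene and barcode. Neither ambient RNA correction nor a doublet caller is named in the methods, and neither was applied here. Barcodes with 700 to 22000 UMIs, 200 to 6000 genes and under 25% mitochondrial UMIs were kept. The iWAT matrices hold no barcode past the upper UMI or mitochondrial limit.

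The members, gene lists and tests were chosen with earlier results of these data known. Genes are named by a rule: fixed mast cell and basophil genes, called genes, the genes with the largest ratio to other barcodes, and up to 4 examples a list. Egr1, Lyz2, C1qb, Igkc, Fabp4, Ccl2, Ccl7, Slc18a2 and Gzmb in the comparison within mast-like cells, and list genes beyond these examples, were named after their values were seen.

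Counts of barcodes per class, sums over mast-like cells (libraries with at least 10) and sums over whole libraries were tested with edgeR 4.0.16 (quasi-likelihood, TMM for genes, fitted in R 4.3.3), with Benjamini-Hochberg adjustment and a threshold of 0.05. DESeq2 1.42.0 was an alternative. The design named 10 classes and no class of all members, so a fit with members merged was added. The fits of mast-like cells and of whole libraries were chosen after seeing the data, since only 1 library held 20 members. Shares between depots were tested by exact permutation (scipy 1.17.1). The scripts were tested on simulated counts. Same-numbered iWAT and eWAT libraries deviated together within each label (correlations of 0.190, 0.238 and 0.517). The main tests between depots were unpaired, and pairing by number was an alternative. The labels name no shared mouse, and same-numbered libraries of different labels correlated by up to 0.250 in eWAT and 0.532 in iWAT. Each group is 2 mice, and p-values measure the spread between those libraries only. Alternatives were other rule thresholds, no exclusion, Ptprc barcodes, thinning to 700 UMIs, other filters and normalizations, a replicate block and leaving out each library.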

Additional observations from a re-analysis of the deposited data

Results flagged for a closer look

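In eWAT ob/ob-Veh replicate 1, Cma1, Mcpt4 and Tpsb2 reached 38.4 CPM in barcodes with under 2 UMIs of Cpa3, Mcpt8 and Ms4a2, apart from the next library at 12.1 CPM, and 18.3% of such barcodes held one of the 3 transcripts against 6.13% in the next. In iWAT, ob/ob-Veh replicate 2 stood apart with a mast-like share of 0.0139% where the others had 0, and with 99.0% of its protease UMIs in such barcodes where the others had 99.9% or more. Both rest on very few counts: with 5 of 6 libraries at 0 a single cell sets the first, and 7 of 715 UMIs set the second. Libraries were compared by the gap of the extreme sample in 15 groups of 6, 4 stood apart, and chance alone sets apart about 1 group in 20.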

How the results depend on the processing

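Of 683 alternative values for 48 results, 571 kept their direction and side of the threshold. The depot difference in members (-0.157 to -0.0612 percentage points) and in mast-like cells (-0.153 to -0.0611) passed in every alternative. Dropping an upper limit could change eWAT only, since the iWAT matrices hold no barcode past those limits. Among Ptprc barcodes, eWAT log2 differences were 1.75 (members) and 1.52 (mast-like) for ob/ob-Veh against WT-Veh, and -3.42 (mast-like) for ob/ob-Rosi versus ob/ob-Veh. The last was -2.41 with the replicate block, -2.34 in 8 classes and -2.37 by DESeq2, all past the threshold. Leaving out libraries gave members -3.52 to -2.08, with -2.21 not past it. In iWAT, members reversed to -2.02 (Ptprc, ob/ob-Veh against WT-Veh), to 2.20 (other-lineage members left out) and 2.27 (Ptprc) for ob/ob-Rosi versus ob/ob-Veh, and ran from -2.24 to 3.04 for ob/ob-Rosi against WT-Veh, -0.35 among them, when a library was left out. Genes called in mast-like cells numbered 7 (DESeq2), 11 (no filter), 2 (replicate block), 7 (other-lineage cells left out), 10 (all members) and 0 to 34 (a library left out). Cma1 there reversed to 0.034 (DESeq2), 0.051 (library size alone), 0.29 (no filter) and from -0.17 to 0.23 (a library left out, 0.14 and 0.022 among them). Mcpt4 reversed to -0.022 (replicate block), -0.039 (all members) and from -0.24 to 0.36, and Tpsb2 to 0.45 (other-lineage cells left out). The cause was not tested. The fit with other-lineage cells left out rested on 4 and 4 WT-Veh cells and 15 and 8 ob/ob-Veh cells, against a minimum of 10 a library. Of 9 whole-library calls, 1 held without each library. Genes whose label effect differed between depots numbered 20 (ob/ob-Veh against WT-Veh) and 8 (ob/ob-Rosi versus ob/ob-Veh), against 133 and 57 (replicate block), 667 and 417 (DESeq2), 373 and 192 (no filter) and 0 to 388 and 0 to 26 (a library left out).

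Between labels, same-numbered libraries correlated by 0.117, 0.209 and 0.250 in eWAT and -0.0991, -0.0933 and 0.532 in iWAT, and with 2 pairs a comparison the numbers were not taken as pairs there. With the depots paired by number, exact sign flips over 64 gave p = 0.03125 for the shares, and the replicate block changed no depot call on Cma1, Mcpt4, Tpsb2, Cpa3 or Fcer1a. For the 3 proteases summed below the rule's threshold, pairing kept 13.1 CPM (exact sign flips, p = 0.03125). That sum is no test of the depots, since the rule left 27.4% of the protease UMIs there in eWAT and 99.8% in iWAT. With a library left out the 13.1 CPM ran from 9.74 to 18.1 CPM. Over all kept barcodes the depot difference then ran from -30.4 to -15.6 CPM. Genes in members at 20 a library, the other 3 gene contrasts, genes in basophil-like cells and the mast-like share of typed members by depot could not be fitted, and at 3 or 4 UMIs iWAT held no member. The basophil-like class, 1 cell, gave -2.29 ± 4.69 SE for ob/ob-Veh against WT-Veh in eWAT (edgeR adjusted p = 0.797). With 86 members, few cells limit every comparison of labels that counts members or sums their UMIs.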
